A study of Mus musculus with 4 samples.

Results

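Macrophages that carry Trem2 or Gpnmb were examined in single-cell gene expression from mouse liver tumours. A cell was a member when it held at least 1 UMI (unique molecular identifier, the tag that marks 1 captured RNA molecule) of Trem2 or Gpnmb and at least 1 UMI of 2 or more of the 4 macrophage genes Lyz2, Cd68, C1qa and Csf1r. It could hold UMIs of no more than 1 of the 5 genes of liver-resident Kupffer cells, Clec4f, Vsig4, Cd5l, Timd4 and Marco, and none of Siglech, Cd3e or Cd79a, which mark plasmacytoid dendritic cells, T cells and B cells. The rule gave 629 members among 24802 cells, or 2.54% (exact Clopper-Pearson 95% interval 2.34 to 2.74%).

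The study took HCC (hepatocellular carcinoma) tissue from C57BL/6 mice aged 5 months, 2 samples from Miz1F/F mice, the controls with a floxed Miz1 gene, and 2 from Miz1_delta_hep mice, in which the labels give Miz1 as deleted in hepatocytes. Every mouse in both genotypes had received the carcinogen DEN at 25 mg/kg in week 2 of life and weekly CCl4, a liver toxin, at 0.5 ml/kg. The labels do not name the Cre line that deletes Miz1 and do not say how many animals gave each sample. The deposited table pools all cells under 4 barcode suffixes, called barcode sets 1 to 4 here, and no source used here ties a set to a sample, so the genotypes were not compared. All values are given per set, no set stands as a replicate of a group, and no p-value was computed.

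TREM2 is a receptor of macrophages and microglia for lipids, lipoproteins and cell debris, and it signals through the adaptor TYROBP and the kinase SYK. GPNMB is a glycoprotein of lysosomes and the cell surface that macrophages make when they are loaded with lipid or debris, and its gene is a known target of the MITF family of transcription factors. Macrophages with both genes are known from fatty and fibrotic liver, from obese fat tissue and from tumours, where they are often called lipid-associated macrophages. They are usually thought to come from blood monocytes, unlike the Kupffer cells, which are long-lived residents of the liver sinusoids.

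Trem2 (chr17:48346401-48354147, + strand, GRCm38) and Gpnmb (chr6:49036546-49070929, + strand) are the genes the cells were chosen by, with the macrophage and Kupffer genes above, so their levels are given as a description. Trem2 was found in 559 members (88.9%) at a mean of 491, 490.1, 659 and 442 CPM (counts per 1000000 UMIs of a cell, averaged over cells) in sets 1, 2, 3 and 4. Gpnmb was found in 214 members (34.0%) at 716, 771, 407 and 69.7 CPM in the same order. The cells were chosen by these genes, and 1 UMI gives more CPM in a shallower cell, so these means do not compare the sets. Cells that met the rest of the rule, with or without these 2 genes, were also thinned to 1000 UMIs each. Trem2 was then found in 13.7, 10.1, 8.91 and 5.76% of them in sets 1, 2, 3 and 4. Gpnmb was found in 11.2, 9.15, 4.46 and 1.07%, so both genes were least often found in set 4. UMIs of both genes were found in 144 members, of Trem2 without Gpnmb in 415 and of Gpnmb without Trem2 in 70. The cells with Trem2 alone were 211 of the 248 members of set 4 and 119 of the 222 members of set 1. Most members entered on few molecules: 308 held 1 UMI of the 2 genes together, 111 held 2 and 210 held 3 or more. A cell with Trem2 alone can therefore be one in which Gpnmb RNA was present and not captured. Members with both genes had a median of 6397 UMIs in all, those with Trem2 alone 4213 and those with Gpnmb alone 2596.5.

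The macrophage genes of the rule were well represented. Cd68 (chr11:69664213-69666153, − strand), which encodes a lysosomal protein of macrophages, was found in 456 members (72.5%) at 684, 285, 276 and 469 CPM in sets 1 to 4. Lyz2, lysozyme, was found in 626 members, Csf1r, the receptor for the macrophage growth factor M-CSF, in 522 (83.0%), and C1qa, a subunit of complement C1q, in 381 (60.6%). Of the genes that were allowed at most once, Cd5l was found in 103 of the 149 members that held 1 of the Kupffer genes. The 138 members with only 2 of the 4 macrophage genes, just inside the rule, had 215 CPM of Cd68 and 1926 CPM of the hepatocyte gene Alb. The 58 cells with 1 macrophage gene, just outside it, had 47.3 CPM of Cd68 and 4602 CPM of Alb. At the other edge, the 149 members with 1 Kupffer gene had 308 CPM of the iron exporter gene Slc40a1, against 886 CPM in the 65 cells with 2 Kupffer genes just outside and 61.7 CPM in the 480 members with none. Slc40a1 was thus higher with each Kupffer gene held, and the edge fell within that range.

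Free RNA in the droplets can place a UMI in a cell that does not express the gene. Trem2 was found in 18.0% of all cells that passed the macrophage gate, in 13.3% of Kupffer cells (11.4 to 15.2%), in 0.994% of B cells (34 of 3421, median 1539 UMIs) and in 0.600% of T cells. Gpnmb was found in 6.88% of the gate, 2.10% of Kupffer cells, 0.526% of B cells and 0.360% of T cells. With every cell thinned to 1000 UMIs, Trem2 was found in 8.33% of the gate and 0.335% of B cells, and Gpnmb in 4.56% and 0.298%. In the gate both genes thus stood above the share in B cells at equal depth. Other genes of the report were less free of this background: Apoe was found in 98.9% of members, 76.5% of B cells and 66.8% of T cells, Spp1 in 27.3%, 12.3% and 11.9%, Fabp5 in 39.3%, 5.82% and 13.8%, Cd63 in 49.9%, 6.14% and 5.04%, and C1qb in 63.4%, 13.5% and 11.2%. Small differences in Apoe and Spp1 are therefore hard to read.

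Markers of other cell types were present in the members to unequal degrees. The summed level of the hepatocyte markers was 1859, 5093, 1026 and 5755 CPM in sets 1 to 4, against 2254, 7485, 1557 and 6585 CPM in Kupffer cells, and 82.2% of members held 2 or more of them. Erythroid markers summed to 1738, 3633, 10757 and 4608 CPM and plasma cell markers to 448, 807, 2746 and 532 CPM. Basophil and mast cell markers summed to at most 2.71 CPM, with 5 of 6 at 0, and Krt19 of cholangiocytes and Des of stellate cells were at 0. A gene with no UMI in 629 members may be detected in up to 0.477% of such cells, a limit that covers counting error only. No doublet caller was run, and what part other cells' RNA or joined droplets have in the members was not tested.

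Clustering of the 629 members on 1500 variable genes gave 6 subgroups, numbered here and left unnamed. The genes given for a subgroup are those that set it apart in the clustering and are a description. Subgroup 1 held 176 cells (30, 28, 42 and 76 in sets 1 to 4) and was led by Vcam1, an adhesion molecule, at 635 CPM against 50.6 CPM in the other members. Next were the chemokine gene Ccl8 with 203 against 16.4 CPM and the collagenase gene Mmp13 with 174 against 14.1 CPM. Cadm1, Cd5l, Il18bp, Cd81, Cd72, Clec1b and Slc40a1 followed. It had 5037 CPM of C1qb, 38888 CPM of the lipid carrier gene Apoe and 22208 CPM of Cd74, the chaperone of MHC class II. These cells had the most Apoe and C1qb of the 6 subgroups. Of them, 37.5% held 1 Kupffer gene, and Kupffer markers summed to 1009.8 CPM against 185 CPM in the other members. That sum takes in the Kupffer genes of the rule, and Cd5l alone was at 581 against 74.6 CPM.

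Subgroup 2 held 148 cells (80, 36, 21 and 11) and was the one in which Gpnmb was most often found, in 79.1% of cells. It was led by Gpnmb itself at 1409 CPM against 128 CPM, by Spp1, osteopontin, at 2124 against 199 CPM, and by the fatty acid binding protein gene Fabp5 at 1805 against 192 CPM. Syngr1, Pmp22, Ccl24, Emp1, Gm26917, Vat1 and Gpx3 completed the 10. The lysosomal protease genes Ctsd and Ctsb were at 3437 and 6906 CPM there, against 1789 and 4318 CPM in subgroup 1. Apoe stood at 24984 CPM and C1qb at 2512 CPM. By the markers that go with the label of the cells, Trem2, Gpnmb and Cd68, subgroup 2 stood highest, with a sum of 2809 CPM against 991 CPM in the other members. Subgroup 1 had 1264 against 1479 CPM of them and 2 Kupffer markers among its 10 leading genes. Subgroups 3, 4, 5 and 6 had 797, 870, 549 and 1024 CPM of them. Trem2 alone was found in 89.8% of cells of subgroup 1 and 83.1% of subgroup 2. These markers are all genes of the rule, and Gpnmb also led subgroup 2, so their sums cannot bear out the label in any subgroup. Apoe and C1qb were also found in 98.9% and 83.8% of Kupffer cells, so finding them in a cell does not tell it from a Kupffer cell. Those shares do not compare levels, and the levels of the subgroups were not set against Kupffer cells.

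Subgroup 3 held 117 cells, 100 of them in set 1, and Gpnmb was found in 17.1%. It was led by Chil3, a chitinase-like protein of monocytes and neutrophils, at 9567 CPM against 724 CPM. G0s2, S100a8, Retnlg, Ifitm6, S100a9, Hp, Mmp8, Mcemp1 and Wfdc21 followed, and 4 of the 10 were neutrophil markers. C1qb was at 62.5 CPM and the classical monocyte gene Ly6c2 at 1368 CPM. Neutrophil markers summed to 2544 CPM against 278 CPM in the other members, and classical monocyte markers to 17534 against 3069 CPM. These cells thus had little C1q and more RNA of both monocyte and neutrophil markers than the other members.

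Subgroup 4 held 152 cells, 132 of them in set 4, and Gpnmb was found in 9.87%. Ly6d, Hpx, Tm4sf4, Hbb-bt, Krt8, Clu, Hbb-bs, Serpina1a, Krt18 and Mup20 led it, most of which belong to hepatocytes, other epithelial cells or red cells. Hepatocyte markers summed to 8378 CPM there against 2203 CPM in the other members, and erythroid markers to 11172 against 2050.1 CPM. In a finer clustering of the members, 12 cells formed a cluster with 1553 CPM of Krt8 and 2655 CPM of Ly6d. Its hepatocyte markers summed to 57655 CPM and its erythroid markers to 42080 CPM. How these 12 cells fall in subgroup 4 is not reported here, so the means of subgroup 4 need not hold for most of its cells. The monocyte genes Plac8 and Ccr2 were at 4114 and 618 CPM. What part hepatocyte and red cell RNA has in this subgroup was not tested.

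The last subgroups were small. Subgroup 5, with 17 cells, was led by the endothelial genes Gpihbp1 at 1489 CPM, Cavin2, Aqp1 and Adgrf5, and its endothelial markers summed to 4228 CPM against 93.1 CPM in the other members. Subgroup 6, with 19 cells, all of them with Trem2, was led by the cell division gene Birc5 at 546 CPM and by Elane, neutrophil elastase, at 459 CPM. Birc5 was found in 89.5% of its cells and Elane in 15.8%. At a finer clustering resolution the members fell into 10 clusters instead of 6. The rule thus gathered several kinds of cells, so the members are called Trem2 Gpnmb cells below rather than 1 cell type.

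**Figure D1:**
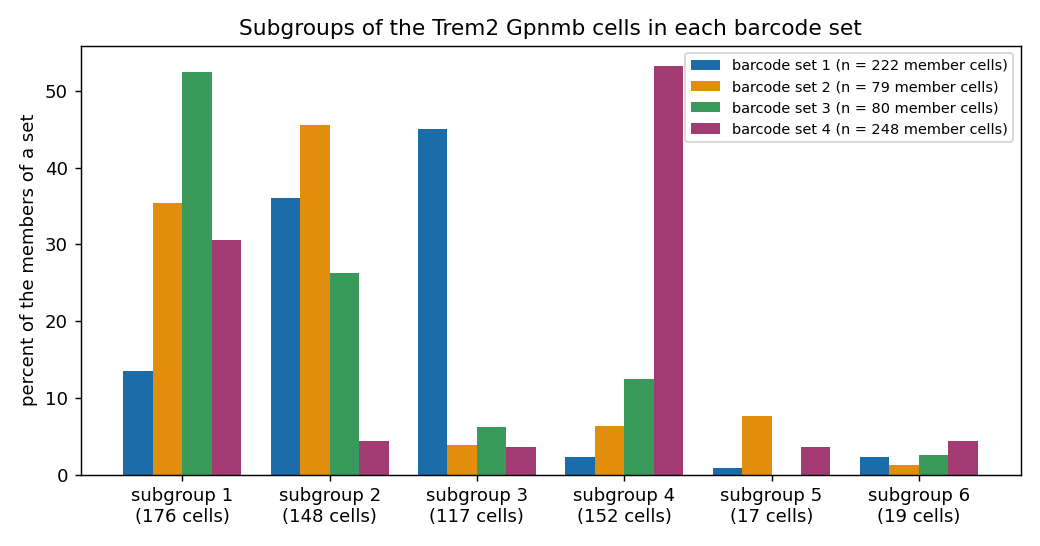
Percent of the Trem2 Gpnmb cells of each barcode set (bars, vertical axis from 0) that fell in each of the 6 subgroups (horizontal axis). Set 1 is mostly subgroups 3 and 2, with 100 and 80 of its 222 members, and set 4 mostly subgroup 4, with 132 of its 248.

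The sets therefore differed in which members they held. Subgroup 2 took 80 of 222 members in set 1, 36 of 79 in set 2, 21 of 80 in set 3 and 11 of 248 in set 4. Subgroup 1 took 42 of the 80 members in set 3. A mean over all members leans on sets 1 and 4, so levels are compared set by set below.

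**Figure D2:**
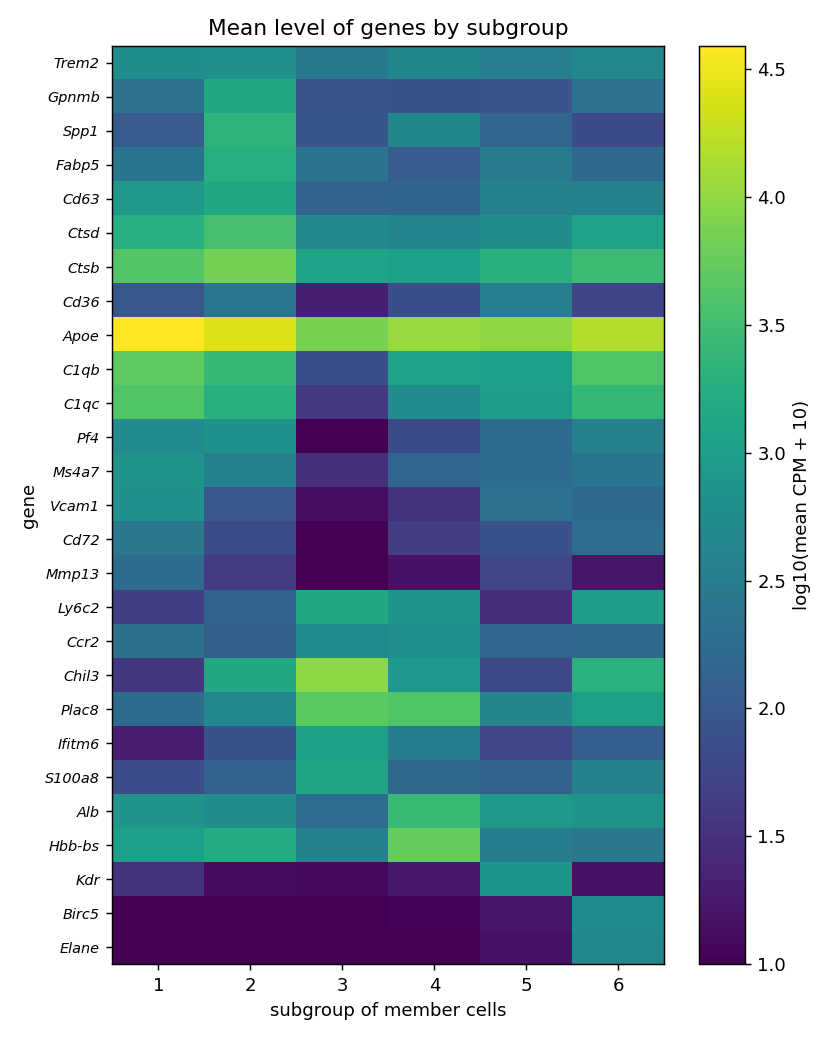
Mean level of chosen genes (rows) in the 6 subgroups (columns), with colour giving log10 of CPM plus 10. Gpnmb, Spp1 and Fabp5 are highest in subgroup 2, Vcam1 and C1qb in subgroup 1, Chil3 and S100a8 in subgroup 3, Alb in subgroup 4, Kdr in subgroup 5 and Birc5 in subgroup 6.

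Members with Gpnmb (214 cells; 103, 46, 28 and 37 in sets 1 to 4) were compared with members that held Trem2 alone (415 cells), to see what went with Gpnmb among these cells. This contrast was chosen after the data were seen. In this and the comparisons below, a ratio is the log2 of mean CPM plus 10 in the former cells over the same in the latter within a set, given as the median over sets with the lowest and highest set in parentheses. A gene counted as different when it was at least 2-fold apart the same way in every set. By that count 8 of 5549 genes (0.144%) were higher with Gpnmb and 7 (0.126%) lower, and the median ratio over all genes was 0.02. The counts moved with the sets used: without set 2, 3 or 4 the higher genes numbered 19, 14 or 24, and without set 1, 2, 3 or 4 the lower genes numbered 21, 20, 16 or 15.

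Among the 8 genes higher with Gpnmb, Fabp5, Cd36, Galc, Ctsd and Ctsb act in lipid handling or the lysosome, and Syngr1, Vat1 and Igf1 were the others. Fabp5 (chr3:10012548-10016607) was at 1583, 1966, 1054 and 527 CPM in members with Gpnmb and 170.5, 264, 70.5 and 115 CPM in members with Trem2 alone, a ratio of 2.996 (2.10 to 3.72). The groups did not overlap: the lowest set with Gpnmb stood above the highest without. Syngr1, a synaptogyrin of vesicle membranes, had a ratio of 2.14 (1.20 to 4.29), Vat1 1.83 (1.10 to 2.90), and Galc, the lysosomal enzyme that degrades galactosylceramide, 1.72 (1.25 to 2.77).

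Cd36, a scavenger receptor for oxidised lipoproteins and fatty acids, was at 113, 383, 384 and 126 CPM with Gpnmb and 25.7, 149, 98.2 and 52.1 CPM with Trem2 alone, a ratio of 1.55 (1.13 to 1.87). It was higher with Gpnmb within each set, while the ranges over sets overlapped. Igf1, a growth factor gene, had a ratio of 1.48 (1.29 to 2.19). The cathepsin genes were the most abundant of the 8. Ctsd (chr7:142375911-142388038, − strand), cathepsin D, was at 3405, 2888, 2769 and 1788 CPM with Gpnmb and 731, 928, 1095 and 829 CPM with Trem2 alone, a ratio of 1.48 (1.10 to 2.20). Ctsb (chr14:63122462-63145923), cathepsin B, was at 5955, 7795, 7283 and 3619 and 1767, 3797, 3120.1 and 1719.8 CPM, a ratio of 1.14 (1.04 to 1.75). Every set with Gpnmb had more Ctsd than any set without it, and Ctsb overlapped by set 4 with Gpnmb, which was below set 2 without it.

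Spp1 (chr5:104435118-104441050), which leads many descriptions of tumour macrophages, did not meet the count. It was at 1032, 3886, 397 and 220.2 CPM with Gpnmb and 24.0, 765, 239 and 308 CPM with Trem2 alone, a ratio of 1.52 (-0.47 to 4.94). It was far higher with Gpnmb in set 1 and lower with it in set 4. Cd63, a tetraspanin of late endosomes, had a ratio of 1.56 (0.81 to 2.79), Plin2, the coat protein of lipid droplets, 0.82 (0.74 to 1.72), and Psap, prosaposin, 0.95 (0.80 to 1.21). Apoe was at 35590.0, 13319, 19235 and 29326 CPM with Gpnmb and 18042, 12209, 15344 and 20014 CPM without, a ratio of 0.44 (0.13 to 0.98), and C1qb had a ratio of 0.40 (0.15 to 1.42). Apoe and C1qb were thus abundant in both kinds of member. Members with Gpnmb had a median of 4960 UMIs and those with Trem2 alone 4213, and with all cells thinned to 1000 UMIs the counts were 13 higher and 17 lower.

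Among the 7 genes lower with Gpnmb were Hbb-bt, Hbb-bs, Hba-a2, Hba-a1, Ifitm6 and Plac8. Hbb-bs, a haemoglobin chain, was at 629, 279, 1799.7 and 306 CPM with Gpnmb and 1344, 4216, 6799 and 2510.0 CPM with Trem2 alone. Haemoglobin RNA is that of red cells, and what part free red cell RNA has in these values was not tested. The monocyte genes Plac8 and Ifitm6 had ratios of -1.88 (-3.72 to -1.06) and -2.30 (-3.39 to -2.05), so members without Gpnmb held more monocyte RNA. Classical monocyte markers had a median ratio of -1.31 (-1.95 to -0.95) over 7 genes, with 5 lower in every set.

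**Figure D3:**
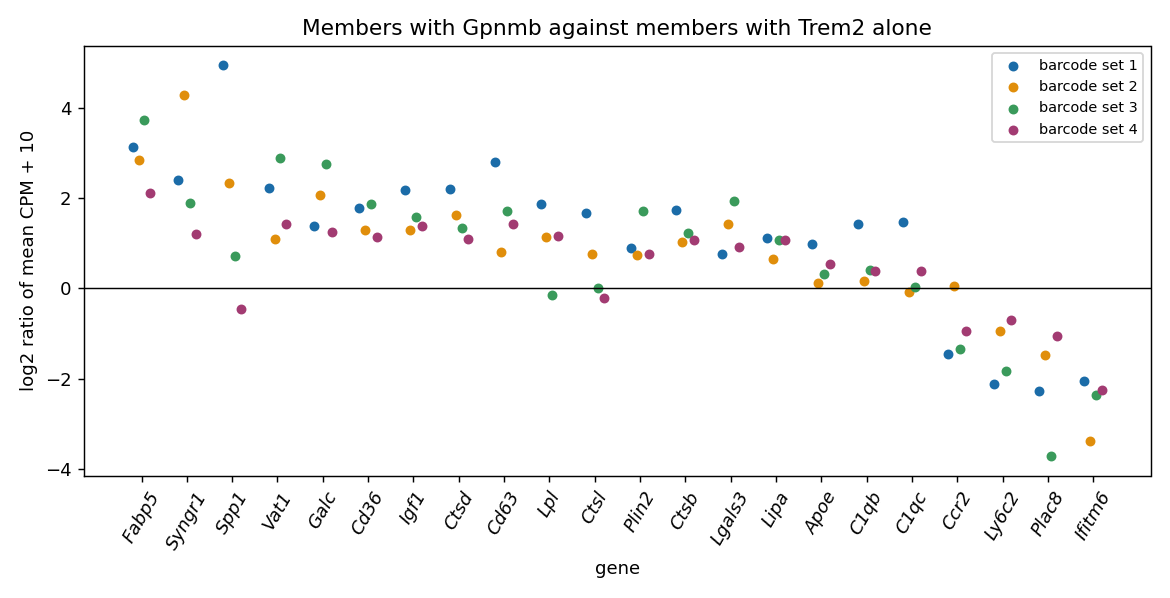
Log2 ratio of mean CPM plus 10 in members with Gpnmb over members with Trem2 alone (vertical axis) for chosen genes (horizontal axis), 1 point per barcode set. Fabp5 lies above 2 in all 4 sets, Ctsd and Ctsb above 1, and Plac8 and Ifitm6 below -1.

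Over the lists, the 21 other genes of the lipid-associated programme had a median ratio of 1.07 (0.88 to 1.68), with 15 higher with Gpnmb in every set and none lower, where 596 of 5549 genes (10.7%) were higher in every set and 503 (9.06%) lower. Of 26 lysosome genes 14 were higher in every set and none lower, with a median of 0.48 (0.37 to 0.87). Interferon response genes had a median of -0.48 (-1.24 to -0.14), with 4 of 15 lower in every set. MHC class II and co-stimulation genes had a median of -0.05 (-0.96 to 0.62), near that of all genes, and the Trem2 adaptor and signalling genes one of -0.16 (-0.31 to 0.26). The lists share genes (Ctsb, Ctsd and Cd63 stand in both of the first lists), so they are not separate observations.

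MITF, TFEB and TFE3 bind the E-box CACGTG and its extended form TCACGTGA, and they drive lysosome genes. Sequence just upstream of Gpnmb, Trem2 and Ctsd, a lysosome gene higher with Gpnmb, is shown to place these motifs. The sequences are RefSeq's on GRCm38.p6, 5′ to 3′ on the gene's strand, with CACGTG in capitals. Gpnmb is chr6:49036268-49036517 (+), Trem2 is chr17:48346151-48346400 (+) and Ctsd is chr7:142388039-142388077 (−), all upstream of the first exon in GENCODE.
Gpnmb: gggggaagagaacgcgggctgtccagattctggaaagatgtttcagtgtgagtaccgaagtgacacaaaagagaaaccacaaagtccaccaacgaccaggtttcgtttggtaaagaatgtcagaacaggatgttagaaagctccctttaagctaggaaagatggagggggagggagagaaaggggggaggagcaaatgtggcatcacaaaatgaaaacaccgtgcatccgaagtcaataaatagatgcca
Trem2: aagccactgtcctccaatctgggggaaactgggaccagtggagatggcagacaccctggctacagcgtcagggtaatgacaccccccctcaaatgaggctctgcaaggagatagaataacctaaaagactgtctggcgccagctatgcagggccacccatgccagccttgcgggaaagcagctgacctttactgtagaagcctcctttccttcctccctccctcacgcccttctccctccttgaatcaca
Ctsd: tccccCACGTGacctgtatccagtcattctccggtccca
Neither motif lies in the 300-base window of Gpnmb or of Trem2, which runs to 50 bases after the start. The Ctsd match shown begins 245 bases upstream of the RefSeq start, and the window of Ctsd holds CACGTG at 2 places and TCACGTGA at 1. Among windows of lysosome genes, 8 of 28 (28.6%) held CACGTG (those of Atp6v1a, Ctsa, Ctsd, Ctsl, Glb1, Lamp1, Lgmn and Mcoln1, named because the count is of their windows). Among windows of the lipid-associated list with Trem2 and Gpnmb added, 4 of 22 (18.2%) held it, and among all windows 2349 of 32851 (7.15%). TCACGTGA was in 4 of 28 lysosome windows (14.3%), 1 of the same 22 windows (4.55%) and 320 of all (0.974%). Each motif is its own reverse complement, so both strands were read, and every TCACGTGA is also a CACGTG. A match is a string of letters and not a bound site, and a window without one says nothing on sequence outside it.

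The Trem2 Gpnmb cells were next compared with the Kupffer cells of the same sets, here cells with at least 3 of the 5 Kupffer genes (1283 cells; 124, 213, 25 and 921 in sets 1 to 4). Of 6112 genes 85 (1.39%) were at least 2-fold higher in every set and 159 (2.6%) at least 2-fold lower, with a median of -0.23 over all genes. Without set 3, which had 25 Kupffer cells, 281 genes were lower. With the median of all genes set to 0 in each set, 127 genes were higher and 92 lower. The rules set the levels of the 9 macrophage and Kupffer genes and of Trem2 and Gpnmb, so those are left aside.

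Among the genes higher in the members were several of monocytes. Chil3 was at 5957, 314, 281 and 486 CPM against 58.9, 6.69, 0 and 17.5 CPM in Kupffer cells, a ratio of 4.57 (4.17 to 6.44). Thbs1, thrombospondin, was at 512, 440.1, 94.8 and 500.2 against 10.8, 30.7, 0 and 28.0 CPM, a ratio of 3.61 (3.39 to 4.65). Neither gene's ranges overlapped between the groups. Ccr2, the receptor that brings monocytes out of the marrow, had a ratio of 3.11 (2.24 to 3.87), Ly6c2 3.002 (2.36 to 3.67) and Cx3cr1, the fractalkine receptor, 2.95 (2.07 to 3.12). Others were S100a4, F13a1, Ms4a4c, Fn1, S100a6, Sirpb1c and Emb, with medians between 2.69 and 3.98. Markers of classical monocytes summed to 9015, 1137, 1178 and 3675 CPM in the members and 459, 173, 412 and 495 CPM in Kupffer cells, so set 1, the set with most of subgroup 3, stood highest.

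Some of the higher genes act in inflammation and redox balance. Osm, the cytokine oncostatin M, was at 119.8, 137, 51.7 and 104 CPM against 1.89, 4.61, 0 and 5.20 CPM, a ratio of 3.12 (2.63 to 3.45). Ptgs2, the inducible cyclooxygenase, had a ratio of 2.78 (1.90 to 3.32), and Slc7a11, the cystine importer, 2.84 (2.49 to 3.01). Cd63 was at 753, 919, 662 and 425 CPM in the members and 203, 109, 161 and 71.0 CPM in Kupffer cells, a ratio of 2.20 (1.84 to 2.97), with no overlap.

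Fabp5 and Spp1 varied with the set. Fabp5 was at 826, 1255, 415 and 177 CPM against 59.9, 50.4, 239 and 55.1 CPM, a ratio of 2.55 (0.77 to 4.39), and Spp1 at 492, 2582, 294 and 295 CPM against 2.75, 168, 203 and 133 CPM, a ratio of 2.48 (0.51 to 5.30). Both were higher than in Kupffer cells within every set and were least so in set 3. Over sets the ranges overlapped for Fabp5 and not for Spp1. The overlap came from the 239 CPM of set 3, where only 1 of 25 Kupffer cells held a Fabp5 UMI. Lgals3, galectin 3, had a ratio of 1.53 (0.53 to 1.93).

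Among the genes lower in the members were several of Kupffer cells and of iron and haem handling. The rules divide the 2 groups by Kupffer genes, which bears on other genes that go with them, so their ratios are a description. Among gate cells with Trem2 or Gpnmb, Slc40a1 was at 61.7, 308, 886 and 1498 CPM with 0, 1, 2 and at least 3 Kupffer genes. Fcna was at 10.6, 76.7, 654 and 1465 CPM in the same order. Slc40a1, ferroportin, was at 69.4, 188, 160.2 and 131 CPM against 1445, 1596, 1812 and 1594 CPM, a ratio of -3.47 (-4.20 to -3.02). Hmox1, haem oxygenase, was at 334, 829, 940.2 and 237 CPM against 2845, 4396, 3392 and 2332 CPM, a ratio of -2.72 (-3.25 to -1.84). The groups did not overlap for either gene, whose products break down haem from red cells and release its iron. Fcna, a ficolin that binds microbial sugars, had a ratio of -5.95 (-7.24 to -5.22), Folr2, a folate receptor, -4.70 (-5.11 to -3.97) and C6, a terminal complement component, -5.72 (-6.14 to -4.46). Mrc1, the mannose receptor, was at 66.3, 265, 131 and 75.7 CPM against 459, 911, 443 and 477 CPM, a ratio of -2.12 (-2.62 to -1.69). Cd163, the haemoglobin scavenger receptor, had no UMI in the members and 25.4, 184, 158 and 28.3 CPM in Kupffer cells.

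Cdh5, an endothelial cadherin, had a ratio of -3.92 (-5.06 to -2.85). Endothelial markers as a list, Cdh5 among them, summed to 69.2, 483, 99.1 and 272 CPM in the members and 849, 1819.6, 692 and 1486 CPM in Kupffer cells. Cdh5 itself had a median over sets of 454 CPM in Kupffer cells. Of the 8 markers 3 were lower in every set, where 27.1% of all genes were, and 2 at least 2-fold lower, where 2.6% were. The part of endothelial RNA in the lower genes was not tested. Fabp7, Paqr9, Tmem26, Sema6d, Pcolce2, Dmpk, Kcna2, Gfra2 and Epb41l3 completed the 15 lowest. Several of these were near 0 in the members, where the ratio depends on the 10 CPM added.

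Lipid genes did not lie on 1 side of Kupffer cells. Lpl, lipoprotein lipase, was at 433, 830.1, 365 and 199 CPM in the members and 1471, 1282, 2112 and 998 CPM in Kupffer cells, a ratio of -2.01 (-2.50 to -0.62). Apoe was at 26184, 12855, 16706 and 21403 CPM against 27366, 6451, 8479 and 13295 CPM, a ratio of 0.83 (-0.06 to 0.99), and Ctsb at 3709.9, 6125, 4577 and 2003 against 7916, 7844, 9685 and 5273 CPM, a ratio of -1.09 (-1.39 to -0.36). The lipid-associated list had a median of -0.09 (-0.21 to 0.83) over 20 genes, with 6 higher and 6 lower in every set, where 11.6% of all genes were higher in every set and 27.1% lower. With the median of all genes set to 0 the list's median was 0.11, so its direction turns with the centring. Fabp5, Spp1 and Cd63 of the list were higher than in Kupffer cells in every set and Lpl lower.

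**Figure D4:**
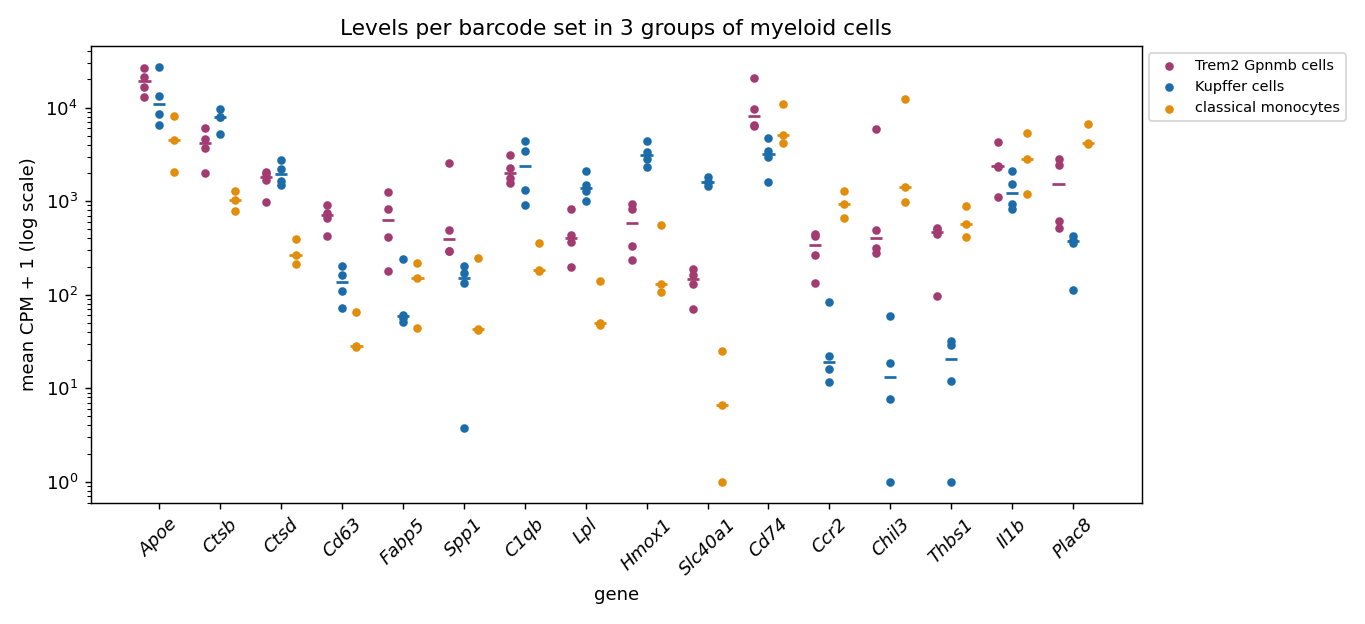
Mean CPM plus 1 (vertical axis, log scale) of chosen genes (horizontal axis) in Trem2 Gpnmb cells, Kupffer cells and classical monocytes, 1 point per barcode set with a bar at the median; monocytes are shown for sets 1, 3 and 4. Slc40a1 and Hmox1 are higher in Kupffer cells than in the other groups, Cd63 and Ctsd are lower in monocytes than in Trem2 Gpnmb cells, and Ccr2 is lowest in Kupffer cells.

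Over all 6112 genes 11.6% were higher and 27.1% lower in every set, and the counts of a list are read against these shares. MHC class II and co-stimulation genes had a median of 1.22 (0.43 to 1.65) against Kupffer cells, with 7 of 10 genes higher in every set and 1 lower. Within it, Cd74 was at 6396, 6532, 9596 and 20689 CPM against 4739, 1619, 2943 and 3470.4 CPM, a ratio of 1.85 (0.43 to 2.57), and H2-Aa had a ratio of 1.76 (0.45 to 2.34). The iron and haem genes had a median of -0.74 (-0.85 to -0.27), with 5 of 13 lower in every set and 2 higher. Alternatively activated macrophage genes had a median of -1.07 (-1.72 to -0.78), with 5 of 10 lower and 2 higher, Mrc1 lower and Chil3 higher among them. Macrophage transcription factors had a median of -0.56 (-0.66 to -0.41), with 10 of 19 lower in every set. Id3, which Kupffer cells need, had a ratio of -1.32 (-1.68 to -0.76).

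Genes of signalling and stress are set against the same shares of all genes, 11.6% higher and 27.1% lower in every set. Tyrobp (chr7:30413760-30417585), the adaptor of TREM2, was at 4454, 2157, 1987 and 3964 CPM in the members and 2876, 803, 1105 and 2488 CPM in Kupffer cells, a ratio of 0.75 (0.63 to 1.41). The adaptor and signalling list as a whole had a median of -0.16 (-0.42 to 0.32), or 0.08 with the median of all genes set to 0, with 1 of 8 genes higher in every set and 1 lower. Cytokine and chemokine genes had a median of 0.27 (-0.05 to 0.37), with 6 of 25 higher and 4 lower. Il1b was at 4294, 2393, 1101 and 2322 against 2097, 1534, 826 and 931 CPM, a ratio of 0.83 (0.41 to 1.31). Immediate early genes, which respond within minutes to handling and dissociation of tissue, had a median of -0.50 (-1.15 to -0.25), with 9 of 13 lower in every set. Heat shock genes had a median of -0.30 (-0.34 to -0.26).

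Lysosome genes had a median of -0.11 (-0.47 to 0.17), or 0.08 with the median of all genes set to 0, and 5 of 26 were higher and 8 lower in every set, where 11.6% of all genes were higher and 27.1% lower. These counts are near those shares. Lipid uptake, storage and efflux genes had a median of -0.73 (-0.98 to -0.10), with 9 of 19 lower and 2 higher. Efferocytosis genes, for the clearance of dying cells, had a median of -0.26 (-0.93 to -0.07). Axl, a receptor that binds dying cells through GAS6, was at 143, 305, 477 and 279 CPM in the members and 531, 725, 879.8 and 521 CPM in Kupffer cells, a ratio of -1.05 (-1.82 to -0.87). Complement genes had a median of 0.28 (-0.55 to 0.60), matrix and growth factor genes 0.37 (0.02 to 0.60), and checkpoint and inhibitory receptor genes 0.07 (-0.17 to 0.20). Glycolysis and hypoxia genes had a median of 0.31 (-0.05 to 0.95), with 7 of 16 higher in every set and 3 lower. Aldoa, a glycolytic enzyme gene, was at 603, 399, 294 and 335 against 375, 172, 167 and 246 CPM, a ratio of 0.73 (0.43 to 1.17). Interferon response genes had a median of -0.35 (-0.57 to 0.11) and cell cycle genes one of 0.01 (-1.15 to 0.70).

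Against classical monocytes, cells of the same gate with Ly6c2 and Ccr2 and with neither Trem2 nor Gpnmb, the comparison used sets 1, 3 and 4 (110, 48 and 278 monocytes), since set 2 had 16. The question was which macrophage genes the members had beyond those of their usual precursor. Of 5271 genes 74 (1.4%) were at least 2-fold higher in the members in every set and 11 (0.209%) at least 2-fold lower, with a median of 0.01 over all genes. Without set 4 the higher genes numbered 160, and without set 1, 3 or 4 the lower genes numbered 50, 17 or 36. The members are the same cells as in the comparison with Kupffer cells and in the one that follows, so these comparisons are not independent.

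Pf4 (chr5:90772435-90773383), the chemokine platelet factor 4, led the higher genes and was at 260.0, 328 and 266 CPM in the members and 2.49, 9.53 and 3.54 CPM in monocytes of sets 1, 3 and 4, a ratio of 4.35 (4.12 to 4.43). C1qc was at 1569.6, 2219.8 and 2018 against 117, 170.5 and 171 CPM, a ratio of 3.63 (3.49 to 3.63), and C1qb had 3.22 (3.10 to 3.55). C1qa, of the same complement protein, is a gene of the rule, which may bear on the other C1q chains. No set of monocytes reached the lowest set of members for Pf4 or C1qc. Markers of other cells also stood higher than in monocytes: erythroid markers summed to 1738, 10757 and 4608 CPM in the members of sets 1, 3 and 4 against 594, 6486 and 884 CPM, with 4 of 4 genes higher in every set. Kupffer markers outside the rule summed to 131, 178 and 188 CPM against 9.59, 0 and 51.9 CPM, with 3 of 3 higher. These counts cover only the few markers above the level filter, and over all genes 21.7% were higher in every set. Their part in the result was not tested.

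Cd63 (chr10:128900989-128912822) was at 753, 662 and 425 CPM against 26.4, 64.4 and 27.2 CPM, a ratio of 3.55 (3.18 to 4.39). Ms4a7, a macrophage membrane protein gene, had a ratio of 3.02 (2.86 to 3.32), Mmp12, macrophage elastase, 2.73 (1.15 to 3.80), and C3ar1, the receptor for complement C3a, 2.50 (2.11 to 3.50). Vcam1 (chr3:116109949-116129688, − strand), which led subgroup 1, had 2.60 (2.46 to 2.61), and Gdf15, a stress-induced cytokine, 3.06 (2.79 to 4.33). Ccl24, Cd72, Cadm1, Rgs1, Ly9 and Il18bp completed the 15, with medians between 2.54 and 3.04.

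Ctsd was at 1971, 1681 and 972 CPM in the members and 395, 214 and 263 CPM in monocytes, a ratio of 2.29 (1.85 to 2.92). Ctsb was at 3709.9, 4577 and 2003 against 1028, 1286 and 783 CPM, a ratio of 1.82 (1.34 to 1.84), and Apoe at 26184, 16706 and 21403 against 8119.6, 2067 and 4468 CPM, a ratio of 2.26 (1.69 to 3.01). Each was higher in the members in every set, and for each the ranges over sets did not overlap. Axl had a ratio of 1.84 (1.82 to 2.32).

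Among the 11 lower genes were Il6, Tppp3, F13a1, Relt, Ccdc88c, Ifitm6, Pdlim1, Gm15987, Rasgrp4 and Ltb4r1. F13a1, a coagulation factor gene of monocytes, had -1.57 (-1.71 to -1.08) and Chil3 -1.06 (-2.30 to -0.995), against 3.47 (2.41 to 3.64) and 4.57 (4.17 to 6.44) in the comparison with Kupffer cells. Classical monocyte markers summed to 17819.5, 6563 and 8655 CPM in the monocytes of sets 1, 3 and 4, which their rule selects for.

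Lipid-associated genes lay mostly on the higher side of monocytes. The list had a median of 1.74 (1.19 to 1.93) over 20 genes, with 17 higher in every set and 1 lower, where 1146 of 5271 genes (21.7%) were higher in every set and 1122 (21.3%) lower. Of the 20, 10 were at least 2-fold higher in every set. Lysosome genes had a median of 0.66 (0.32 to 0.98), with 21 of 25 higher and 0 lower. Lipid uptake, storage and efflux genes had a median of 1.04 (0.33 to 1.34) and efferocytosis genes one of 1.36 (0.87 to 1.82).

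Not every list lay on that side. Glycolysis and hypoxia genes had a median of 0.01 (-0.72 to 0.14) and the Trem2 adaptor and signalling genes one of -0.05 (-0.31 to -0.04), with Tyrobp at 4454, 1987 and 3964 CPM in the members and 5219.5, 2388 and 5209.9 CPM in monocytes. Interferon response genes had a median of -0.31 (-0.80 to -0.08), with 5 of 14 lower in every set and 1 higher. Iron and haem genes did lie on the higher side, with a median of 0.95 (0.74 to 1.01) and 8 of 10 higher and 0 lower. Over all genes 21.7% were higher in every set and 21.3% lower.

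**Figure D5:**
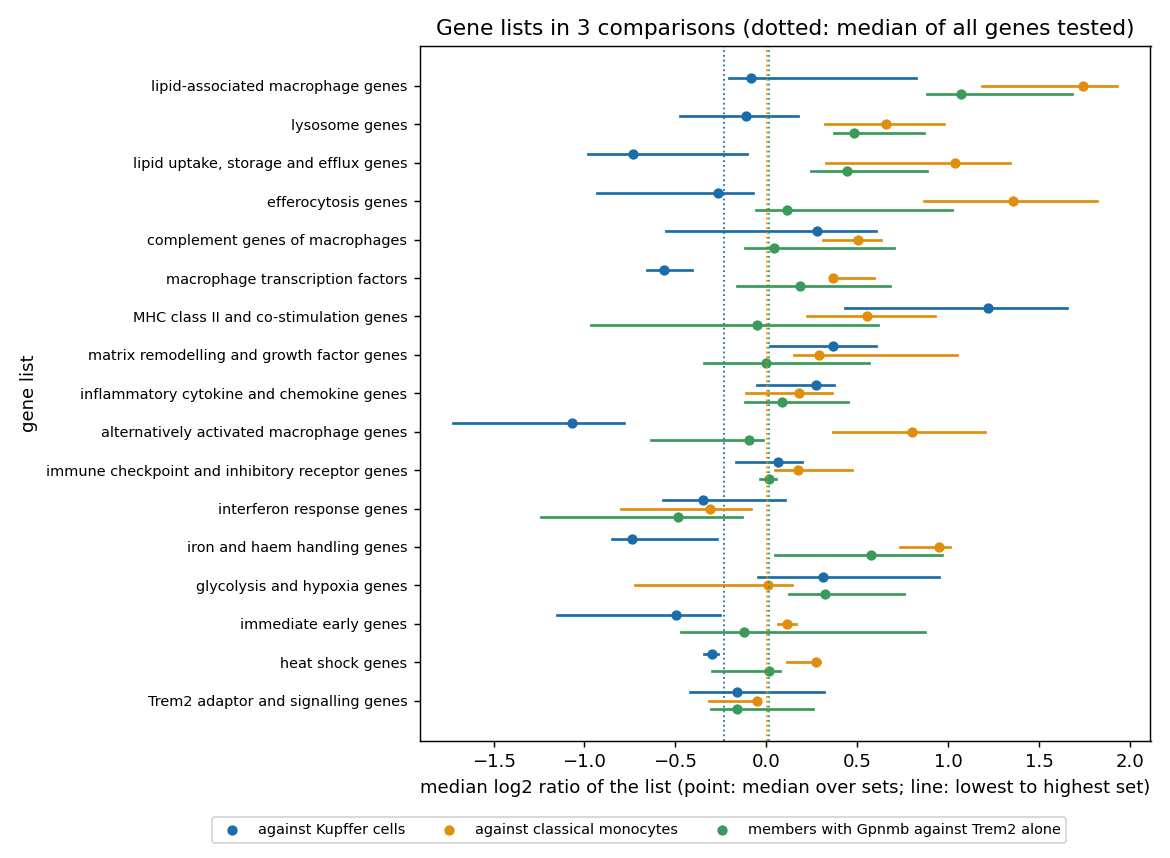
Median log2 ratio of each gene list (rows) in Trem2 Gpnmb cells against Kupffer cells and against classical monocytes, and in members with Gpnmb against members with Trem2 alone; points are medians over barcode sets, lines run from the lowest to the highest set, and dotted lines mark the median of all genes. Lipid-associated genes lie at 1.74 against monocytes, 1.07 with Gpnmb and -0.09 against Kupffer cells.

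Last, the members were set against the 2480 cells (371, 318, 391 and 1400 in sets 1 to 4) that met the same macrophage gate but held no UMI of Trem2 or Gpnmb, which include the monocytes above. Their median was 4881, 1569.5, 1760 and 3190.5 UMIs in sets 1 to 4, against 6877.5, 2615, 1784 and 4096.5 UMIs in the members. A shallower cell is more often without such a UMI, so these cells can include some whose Trem2 or Gpnmb RNA was not captured. Of 5540 genes 7 (0.126%) were at least 2-fold higher in every set and 33 (0.596%) at least 2-fold lower, with a median of -0.07 over all genes. Without set 2 or 4 the higher genes numbered 11 or 23, and without set 1, 2 or 3 the lower genes numbered 50, 57 or 70. With at least 3 macrophage genes required of both groups, 1 gene was higher and 7 lower, so most of these calls end under that gate. At the 2-gene gate the 7 higher genes were Pf4, Cd63, Ms4a7, Hpgds, C1qb, C3ar1 and Apoe. Pf4 was at 260.0, 793, 328 and 266 CPM against 37.9, 132, 149 and 44.9 CPM, a ratio of 2.41 (1.09 to 2.50), and Apoe at 26184, 12855, 16706 and 21403 against 10696, 5724, 4686 and 7561 CPM, a ratio of 1.40 (1.17 to 1.83). Hpgds, the prostaglandin D synthase of macrophages, had a ratio of 1.59 (1.33 to 1.69).

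Many of the lower genes are those of other myeloid cells in the gate. S100a9 was at 434, 74.2, 29.5 and 169 CPM against 15571, 711, 575 and 2487 CPM and S100a8 had a ratio of -3.68 (-5.24 to -2.28), both being calcium-binding proteins of neutrophils. Neutrophil markers summed to 1095, 404, 107 and 631 CPM in the members and 37367, 1966, 1632 and 6899 CPM in the cells without Trem2 and Gpnmb. Cd209a, of type 2 dendritic cells, had a ratio of -3.56 (-3.84 to -2.11), and Ifitm1, Pglyrp1, Wfdc21, Lcn2, G0s2, Klrd1, Hcar2, Acod1, H2-Oa, Cald1, Mmp9 and Hdc made up the rest of the 15. Endothelial markers were lower in the members in every set for 8 of 8 genes, with a median ratio of -1.16 (-1.92 to -0.73), and hepatocyte markers for 7 of 8, with -0.96 (-2.99 to -0.79), where 15.6% of all genes were. Hepatocyte markers summed to 1859, 5093, 1026 and 5755 CPM in the members and 13382, 9589.6, 1915 and 11452 CPM in the other cells. What part neutrophils, dendritic cells, endothelial cells and hepatocytes have in these values, also in the lists that follow, was not tested. The lipid-associated list had a median of 1.02 (0.33 to 1.16), with 14 of 20 higher in every set, where 10.4% of all genes were, and the lysosome list one of 0.72 (0.46 to 0.81), with 21 of 25.

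The members were unevenly spread over the barcode sets. They were 222 of 2574 cells in set 1 (8.62%, 7.57 to 9.78%), 79 of 6224 in set 2 (1.27%, 1.01 to 1.58%), 80 of 4825 in set 3 (1.66%, 1.32 to 2.06%) and 248 of 11179 in set 4 (2.22%). Set 1 stood above the rest, and without it the members were 1.83% of cells. As a share of the macrophage gate they were 37.4%, 19.9%, 17.0% and 15.05%, so set 1 also stood highest within the gate. The gate's median depth was 5970, 1737, 1763 and 3380.5 UMIs, so these shares do not compare sets at equal depth. With cells thinned to 1000 UMIs, Trem2 was found in 13.7, 10.1, 8.91 and 5.76% of the gate. Gpnmb was found in 11.2, 9.15, 4.46 and 1.07%. At that depth set 1 was still highest for both genes, and set 4 lay below sets 2 and 3. The gate leaves out the Kupffer cells and takes in cells with much neutrophil RNA, so it is not the macrophages and monocytes alone. There were 1.79, 0.371, 3.2 and 0.269 members for each Kupffer cell. These ratios put sets 1 and 3 above sets 2 and 4, and set 3 had only 25 Kupffer cells.

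Depth moved with these shares. The members' median was 6877.5, 2615, 1784 and 4096.5 UMIs in sets 1 to 4, against 2648, 906, 1037 and 1859 UMIs over all cells of each set, and a deeper cell is more likely to show a UMI of Trem2 or Gpnmb. With cells thinned to 1000 UMIs, which leaves out shallower cells, the members were 1.64% of cells, and with both genes required they were 0.581%. Of 24427 distinct barcodes 373 occurred in more than 1 set, 16 members had such a barcode, and no barcode was a member in more than 1 set. Since the sets are not tied to samples, whether their shares go with genotype was not tested.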

How the data were processed

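Cells of mouse liver tumours from 4 samples were profiled by droplet sequencing. The submitters' processing notes list CASAVA 1.8, Cell Ranger, Seurat and the mm10 build, and other versions and filters were not given. The deposited table holds, on a natural log scale, 1 plus a gene's UMIs over its cell's UMIs times 10000, as read from the values: 100% of those above 0 gave whole UMIs within a tolerance of 0.001, for 24802 cells, 17813 genes and 65920312 UMIs. The planned count models between genotypes were not run, because no source used here ties cells to samples.

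Levels were computed in Python 3.11.15 with numpy 2.4.6 and pandas 2.3.3 as the mean over cells of counts per 1000000 UMIs (CPM) in each barcode set with at least 20 cells of both groups. Genes with at least 20 CPM in either group were compared as the log2 ratio of CPM plus 10. Members were clustered with scanpy 1.11.5 (Leiden, resolution 0.5, 20 principal components, 15 neighbours). Each set held 9093921 to 35033778 UMIs, and intervals (scipy 1.17.1) cover counting error only. No doublet caller was run.

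Members, gene lists and tests were chosen with earlier results of these data known. The genes named are those of the rule, Tyrobp, up to 4 of the highest level in each list, the 15 highest and 15 lowest per comparison and the 10 leading each subgroup; Alb, marker genes at 0 and genes with a promoter match were named outside this rule, and some genes that meet it are not reported here. Gene positions are GENCODE's on GRCm38, where 98.5% of symbols matched. Promoters are RefSeq's, where 23 of 29 lysosome genes matched, and 17 of the lipid-associated genes with Trem2 and Gpnmb counted among them. Alternatives changed the rule, the scale, the filter, the depth and the sets used.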

Additional observations from a re-analysis of the deposited data

How the results depend on the processing

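The number of genes at least 2-fold apart in every barcode set depended on the processing. Directions of single genes and lists that had the same sign in every set seldom did. Against Kupffer cells the 159 lower genes became 272 with 1 CPM added in place of 10, 47 with 50 CPM, 96 among genes with at least 100 CPM, and 92 with the median of all genes set to 0. They became 322 with cells thinned to 1000 UMIs, 333 with both Trem2 and Gpnmb required and 298 with at least 3 macrophage genes, but these alternatives left 3 sets in place of 4, so the choice and the loss of a set cannot be told apart. Leaving out each set in turn gave 193 to 281. The 85 higher genes became 30 with 50 CPM added and 51 among genes with at least 100 CPM, and 107 to 121 without a set.

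Against classical monocytes the 74 higher genes became 123 and 29 with 1 and 50 CPM added, 39 with at least 100 CPM and 226 with both genes required, and 93 to 160 without a set. The 11 lower genes became 37 and 1 with 1 and 50 CPM added, 5 with at least 100 CPM, 23 when thinned, 169 with both genes required and 35 with at least 3 macrophage genes, and 17 to 50 without a set. Here the alternatives with both genes or at least 3 macrophage genes left 2 sets in place of 3. Against cells of the gate without Trem2 and Gpnmb the 7 higher genes became 17 with UMIs summed over cells, 51 with both genes required and 1 with at least 3 macrophage genes, and 7 to 23 without a set. The 33 lower genes became 84 and 6 with 1 and 50 CPM added, 17 with at least 100 CPM, 69 with UMIs summed, 188 with both genes required, 7 with at least 3 macrophage genes and 76 when members with 2 markers of another cell type (hepatocyte and plasma cell lists aside) were left out, and 43 to 70 without a set. Requiring both genes left 3 sets in place of 4 here.

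Between members with Gpnmb and with Trem2 alone the 8 higher genes became 21 and 4 with 1 and 50 CPM added, 13 when thinned and 3 with at least 3 macrophage genes, and 12 to 24 without a set. The 7 lower genes became 18 and 3 with 1 and 50 CPM added, 17 when thinned, 3 in cells with at least 500 genes and 3 with at least 3 macrophage genes, and 15 to 21 without a set. The share of cells, 2.54%, became 0.581% with both genes required, 1.94% with no Kupffer gene allowed, 1.98% with at least 3 macrophage genes, 1.64% when thinned and 3.45% of cells with at least 500 genes, and 1.83 to 2.96% without a set. A finer clustering gave 10 subgroups in place of 6. The cause was not tested except that fewer sets or stricter rules on genes change how many genes can pass.

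Some small values changed sign. With both Trem2 and Gpnmb required, the ratio of Fos was 0.22 and of Ifitm3 -0.44 against Kupffer cells, and of Pkm 0.069 against monocytes. Against monocytes the median of alternatively activated genes was -0.085 at 100 CPM, Mcm3 was -0.22 with UMIs summed, cell cycle genes had a median of -0.10 when thinned, Trem2 adaptor genes 0.012 with no Kupffer gene allowed, and Dusp1 -0.001054 with at least 3 macrophage genes. Pkm was -0.054 against cells of the gate without Trem2 and Gpnmb when thinned. Without the endothelial and cycling subgroups, an alternative chosen after seeing the data, the median of alternatively activated genes was 0.040 between members with Gpnmb and with Trem2 alone. Of the other values for single genes and lists, 498 moved beyond the spread over sets and 6177 did not. The sign changes above are those of values with the same sign in every set. Values whose sign differed between sets could also change sign and are not listed in full. With the median of all genes set to 0, the lipid-associated, adaptor and lysosome lists went from -0.09, -0.16 and -0.11 to 0.11, 0.08 and 0.08 against Kupffer cells.

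Leaving out every member with 2 markers of another cell type left 58 cells and no value in any of the 4 comparisons. No paired analysis was possible because cells could not be tied to the samples that carry replicate numbers; groups of cells were compared within each barcode set. The planned fits between genotypes, with other normalizations, were not run for the same reason. Levels under about 20 CPM rest on few molecules, and set 3 had 25 Kupffer cells and set 2 too few monocytes.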

Other observations

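Levels of single genes in subgroups 1 and 2 of the Trem2 Gpnmb cells, those with most Apoe and most Gpnmb, are given per barcode set where a set held enough cells of the subgroup. The genes of a clustering differ by construction, so these values are a description. Cd74, the MHC class II chaperone, was at 21652, 13145, 12992 and 30859 CPM in subgroup 1 (sets 1 to 4) and 7548, 1553 and 4675 CPM in subgroup 2 (sets 1 to 3). H2-Aa, an MHC class II chain, was at 7553, 7686, 7096 and 9225 CPM in subgroup 1 and 2831, 631 and 2677 CPM in subgroup 2. Every set of subgroup 1 thus lay above every set of subgroup 2 for both genes.

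Plin2, the lipid droplet coat protein, was higher in subgroup 2, with 320, 428, 119.5 and 223 CPM in subgroup 1 and 554, 862 and 579.7 CPM in subgroup 2. Lpl, lipoprotein lipase, was at 579, 721, 324 and 376 CPM in subgroup 1 and 836, 1056 and 518 CPM in subgroup 2, with overlapping ranges. Thbs1 was at 15.8, 0, 33.5 and 27.9 CPM in subgroup 1. In subgroup 2 it was at 351, 850.2 and 0 CPM, so set 3 lacked it there. Subgroups 3 and 4, each mostly from 1 set, had 809.7 CPM of Thbs1 in set 1 and 729 CPM in set 4. Il1b, interleukin 1 beta, was at 1775, 2758, 970.2 and 1300.4 CPM in subgroup 1, and 4151, 2008 and 1057 CPM in subgroup 2, with overlapping ranges.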
